A study of Rattus norvegicus with 36 samples.

Results

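The soleus of rats that had walked on a treadmill 3 times in the second week after a spinal cord injury was compared here with the soleus of uninjured rats, across all genes on the array. The members were the 6 arrays titled as injured, trained and taken on day 8 and the 6 arrays titled as control, 12 of the 36 arrays of the series, taken by their labels. The SCI8d + TM rats were adult female Sprague Dawley rats, 16 weeks old at the start, whose cord was bruised by a dropped weight at segment T8 to a moderate degree. They trained on all 4 limbs from day 7, with 2 sessions on that day and 1 on day 8, each of 20 min, and a trainer carried part of the body weight when necessary. Their left soleus was removed 8 h after the last session. The SCI8d rats, 6 in number, had the same injury without training, and their muscle was also taken on day 8. The CTR rats, 6 in number, were uninjured rats of matching age. Each rat gave 1 array, so the spread described below is that between animals. Experimental rats also received a dough diet, and whether the controls did is not given in the sources used here, so that injury, training and diet cannot be told apart in the comparison with CTR. The time of day at which control muscle was collected is not given in those sources either.

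The soleus is a postural muscle of slow, oxidative fibers that burn fatty acids and ketone bodies in abundant mitochondria. A moderate contusion of the thoracic cord reduces descending drive while the motor neurons of the hindlimb, which lie below the lesion, keep their contact with the muscle, so the fibers lose activity and load rather than their nerve. Unloaded muscle is known to lose mass through ubiquitin ligases and proteasomes, to turn down genes of oxidative metabolism and to shift its slow fibers toward a fast profile. When load returns, satellite cells, fibroblasts and other resident cells can divide, and genes of the Z-disc, of growing fibers and of the extracellular matrix are known to respond.

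The arrays were of similar quality. Array medians were 202.9 to 234.3 in SCI8d + TM, 189.7 to 212.2 in SCI8d and 190.1 to 198.3 in CTR, so that every trained array lay above every control array in this respect. The ratio of the 3' to the 5' control probe sets of GAPDH was 1.083 to 1.169 in SCI8d + TM and 1.074 to 1.161 in CTR, except for CTR replicate 3 at 1.612. The 15 skeletal muscle identity genes, such as those for slow myosin, myoglobin and the ryanodine receptor, had log2 fold changes of −0.30 to 0.16 between SCI8d + TM and CTR, and none was called. SCI8d replicate 1 stood apart from its group in part of the gene groups. Its mean was the nearest of its group to the CTR mean in 22 of 48 lists and the farthest in 5, and the SCI8d counts of lists below are given with and without it. This array was left out after the data were seen. No other array was left out of the SCI8d counts or the trained minus untrained differences of lists.

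Of 31042 probe sets, 3783 differed between SCI8d + TM and CTR at an adjusted p under 0.05 in limma, which is 12.2% of those tested. Of these, 2011 were higher in SCI8d + TM (6.48%) and 1772 were lower (5.71%), so that 46.8% of the calls were lower. This split depended on the scaling of the arrays. With each array centred on its median signal, 71.8% of the calls were lower, and with each array scaled to its GAPDH control probe set, 36.2% were. The middle of the distribution of log2 fold changes stood at −0.069 and 0.142 under these settings, against 0.078 in the deposited scaling. Counted by gene, with 1 probe set for each of 14217 symbols, 1052 were higher (7.4%) and 1240 lower (8.72%). All 6 trained arrays lay above all 6 CTR arrays in 1103 probe sets, of which 904 were called, and below them in 1122, of which 956 were called. The untrained comparison, SCI8d against the same CTR arrays, called 1952 probe sets (6.29%), with 489 genes higher (3.44%) and 710 lower (4.99%), and 3398 probe sets when SCI8d replicate 1 was left out. Because both comparisons share the CTR arrays, their values are set side by side below and are no independent evidence for each other. Between SCI8d + TM and SCI8d, 0 probe sets were called (0.0%), with a smallest adjusted p of 0.695 in limma. At an unadjusted p under 0.05 there were 1343, and the methods' t-test also called 0 after adjustment.

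The 15 genes with the highest fold change in SCI8d + TM held 6 of the cell cycle list described below, and the other 9 were of mixed function. Npw, which encodes the secreted peptide neuropeptide W, and A2m, which encodes a protease inhibitor of plasma, led with log2 fold changes of 4.32 and 4.29 (SE 0.98 and 0.91). Their control signals were dim, so that these sizes and ranks depend on the scale, and an offset of 32 before the logarithm gave 2.88 and 2.98, below Prc1 at 3.31 and Cthrc1 at 3.18. Npw signals were 247 to 716 (median 447) in SCI8d + TM, 5.75 to 800.0 (599) in SCI8d and 5.16 to 93.3 (26.1) in CTR. The trained and control arrays did not overlap, but the untrained arrays spanned both. Alox15, a lipoxygenase of macrophages and other cells, had 485 to 3687 (1210) in SCI8d + TM, 652 to 4302 (936) in SCI8d and 69.6 to 243 (129) in CTR. All injured arrays, trained or not, lay above the control arrays, and the log2 fold change was 3.28 (SE 0.60, adjusted p = 0.000563). Cthrc1, a secreted protein of fibroblasts in healing tissue, was higher by 3.34 on the log2 scale (SE 0.72).

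The 15 genes with the lowest fold change were also of mixed function. Aqp7, the glycerol channel of fat cells, had signals of 58.0 to 1149 (median 198) in SCI8d + TM, 77.9 to 778 (197) in SCI8d and 1757 to 4003 (2977) in CTR. No injured array reached the lowest control array, and the log2 fold change was −3.76 (SE 0.54, adjusted p = 5.83e-05). Acss1, the mitochondrial enzyme that turns acetate into acetyl-CoA, had 443 to 923 (710.0) in SCI8d + TM, 361 to 2318 (777) in SCI8d and 4016 to 6437 (5305) in CTR, a log2 fold change of −3.00 (SE 0.40). The groups were far apart in this gene, too. G0s2, an inhibitor of the lipase that breaks down stored fat, fell by 3.31 on the log2 scale, and Prxl2a, a redox protein related to peroxiredoxins, fell by 2.71. Mettl21c, a methyltransferase of slow muscle, and Ky, a Z-disc protein whose loss causes kyphoscoliosis in mice, each fell by 2.55. Asb18 and Klhl38, which encode subunits of ubiquitin ligases, had log2 fold changes of −3.36 and −2.63. The matrix protein gene Chad, expressed in cartilage and tendon, had 61.3 to 3419 (351) in SCI8d + TM, 30.5 to 2933 (1709) in SCI8d and 381 to 9979 (3891) in CTR, so that the groups overlapped although its log2 fold change was −3.46 (SE 0.95). Aox1, Lgi1, Myoc, C19h16orf74 and LOC102554789 completed the 15 together with Bdh1, and their log2 fold changes were −2.62, −3.38, −2.86, −2.76, −2.66 and −2.56. Of the 30 genes, only Actn3, Chad and Myh8 lost their calls under any alternative, each under the methods' t-test.

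**Figure D1:**
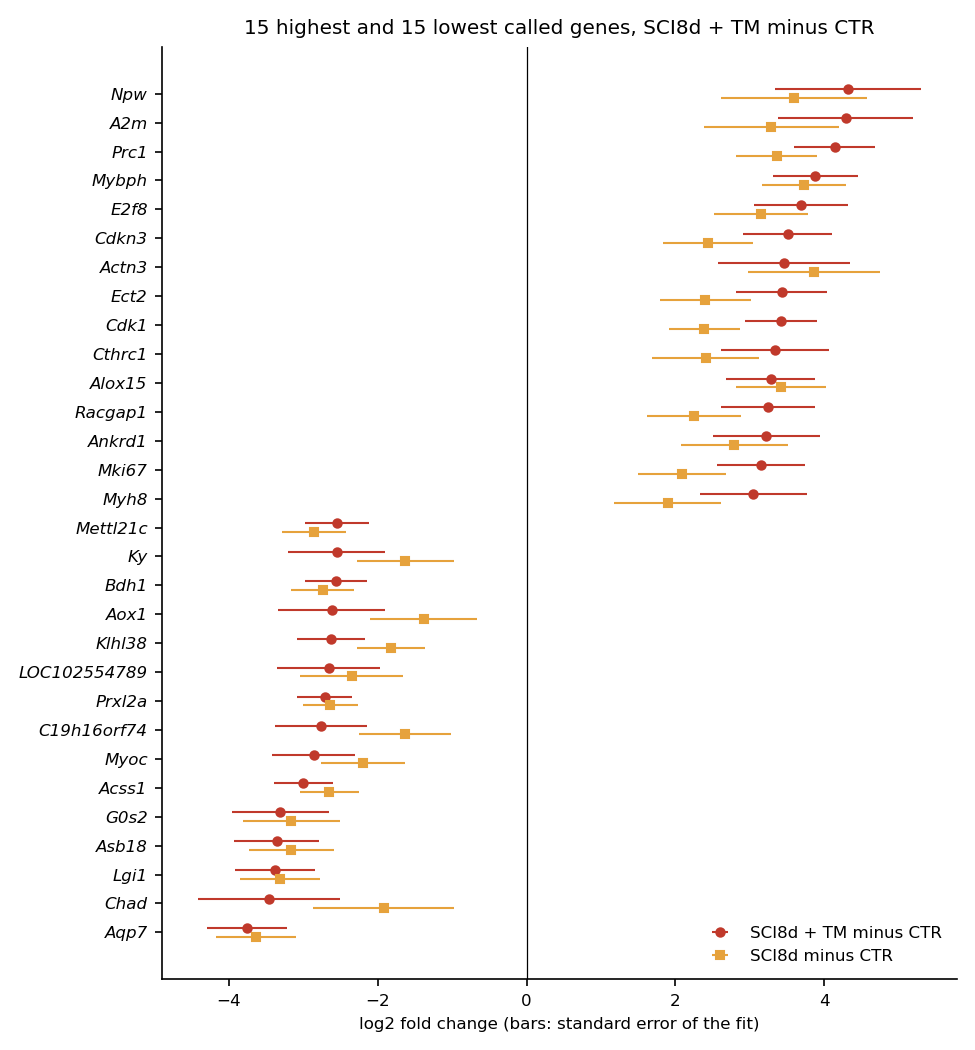
Log2 fold changes of the 15 highest and 15 lowest called genes in SCI8d + TM minus CTR (circles), beside SCI8d minus CTR (squares), with bars for the standard error of the fit. The genes were chosen on the circles, and both comparisons share the CTR arrays; the circles run from −3.76 in Aqp7 to 4.32 in Npw.

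Mitotic genes rose as a group. Of 37 genes of the cell cycle and mitosis, 32 were higher in SCI8d + TM than in CTR (86.5%, beside 7.4% of all genes) and 0 lower. The median log2 fold change was 2.19 beside 0.029 over all genes. In 28 of the 37 every trained array lay above every control array, as in 1103 of all 31042 probe sets. With the dimmest 40% of probe sets left out, 21 of the remaining members were called higher. Prc1, which bundles the microtubules of the central spindle, had signals of 529 to 1980 (median 733) in SCI8d + TM, 139 to 909 (626) in SCI8d and 11.8 to 149 (48.8) in CTR. Every trained array stood above every control array, and the log2 fold change was 4.14 (SE 0.54, adjusted p = 2.74e-05). Cdk1, the kinase that drives entry into mitosis, had 361 to 1255 (477) in SCI8d + TM, 84.7 to 539 (337) in SCI8d and 35.1 to 76.5 (55.2) in CTR. Its log2 fold change was 3.42 (SE 0.48, adjusted p = 4.7e-05). Ect2 and Racgap1, which position and drive the cleavage furrow, rose by 3.43 and 3.25, and Mki67, the antigen of cycling nuclei known as Ki-67, by 3.15. Cdkn3, a phosphatase that acts on cyclin-dependent kinases and is not in the list, rose by 3.51, and E2f8, an E2F factor that represses transcription, by 3.69. Bub1b and Spc25, which act at the kinetochore, rose by 3.43 and 2.74. The 5 members that were not called had log2 fold changes of −0.17 to 1.84. The control signals of these genes were dim, with medians far under the median signal of their arrays, and an offset of 32 before the logarithm gave a median of 1.82, with 1.84 for Bub1b, 2.60 for E2f8 and 2.04 for Spc25. In a muscle made of many cell types, more dividing cells and more of these transcripts in each such cell cannot be told apart.

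The untrained muscle showed the same genes at intermediate levels. In SCI8d minus CTR, 18 of the 37 were called higher, with a median of 1.63, and 24 with a median of 1.86 when SCI8d replicate 1 was left out. The mean of the 37 log2 signals in each array, relative to the CTR mean, was 1.70 to 3.48 (median 2.23) in SCI8d + TM, 0.23 to 2.33 (1.65) in SCI8d and −0.28 to 0.41 (−0.07) in CTR. The trained arrays overlapped the upper 3 untrained ones, and SCI8d replicate 1 lay inside the control range. The difference between trained and untrained muscle had a median of 0.79 over the 37 genes, with 36 higher on average, and 0.59 without SCI8d replicate 1, and 0 of the 37 passed the test of this difference.

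Promoters of the 3 mitotic genes with the smallest p values are printed to show what the genes share that the arrays did not measure. Each is the RefSeq sequence of build GRCr8 from 250 bases before to 50 bases after the annotated start, 5′ to 3′ on the gene's strand, at chr1:143659231-143659530 (plus strand) for Prc1, chr20:19265043-19265342 (plus strand) for Cdk1 and chr3:74396669-74396968 (minus strand) for Spc25. Capitals mark CCAAT, the sequence known to bind NF-Y, and TTTGAA, the core of the cell cycle homology region bound by the DREAM and MuvB complexes, each on either strand (ATTGG and TTCAAA), with no overlap between the motifs.
Prc1: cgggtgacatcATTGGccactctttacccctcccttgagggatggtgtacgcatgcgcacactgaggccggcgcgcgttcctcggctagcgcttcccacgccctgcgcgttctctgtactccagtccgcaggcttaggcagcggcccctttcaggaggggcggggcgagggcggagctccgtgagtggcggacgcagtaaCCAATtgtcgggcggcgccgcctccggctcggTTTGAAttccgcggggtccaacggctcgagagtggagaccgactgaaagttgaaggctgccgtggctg
Cdk1: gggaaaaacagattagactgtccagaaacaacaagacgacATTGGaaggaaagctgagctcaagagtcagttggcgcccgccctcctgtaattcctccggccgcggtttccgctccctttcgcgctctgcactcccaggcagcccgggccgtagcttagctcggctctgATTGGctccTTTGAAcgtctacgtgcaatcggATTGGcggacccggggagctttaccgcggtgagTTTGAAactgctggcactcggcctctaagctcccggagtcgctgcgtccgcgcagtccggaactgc
Spc25: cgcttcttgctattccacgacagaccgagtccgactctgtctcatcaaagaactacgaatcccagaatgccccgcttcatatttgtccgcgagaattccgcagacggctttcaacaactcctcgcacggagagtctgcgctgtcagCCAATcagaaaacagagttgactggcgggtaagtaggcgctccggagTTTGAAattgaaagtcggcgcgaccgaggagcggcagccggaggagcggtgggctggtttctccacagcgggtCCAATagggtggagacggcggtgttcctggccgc

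CCAAT occurred 2 times in the Prc1 window, 3 times in that of Cdk1 and 2 times in that of Spc25. Of the 29 members of the list with a promoter in the RefSeq table, 22 held CCAAT (75.9%), against 37.5% of 33469 promoters, and 20 held TTTGAA (69.0%), against 18.3%. A match describes the letters of the window and is no evidence of a bound site.

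Genes of DNA replication rose less and in a smaller share. Of 34 measured, 12 were higher and 0 lower in SCI8d + TM, with a median log2 fold change of 0.70, and the count depended on single arrays, with 5 called without SCI8d + TM replicate 2 and 6 without replicate 4. Uhrf1, which brings the maintenance methyltransferase to newly made DNA, had signals of 174 to 815 (median 320.2) in SCI8d + TM, 100.4 to 283 (150.1) in SCI8d and 61.7 to 160.1 (97.1) in CTR. The trained arrays lay above the controls without overlap, and the log2 fold change was 1.83 (SE 0.34, adjusted p = 0.000705). Mcm6 and Mcm5, subunits of the replicative helicase, rose by 1.72 and 1.23, and Prim1, the primase that starts each strand, rose by 1.09. In untrained muscle the same list had 1 gene called higher and a median of 0.17, and 2 genes and 0.24 without SCI8d replicate 1. The list mean relative to CTR was 0.37 to 1.43 (median 0.62) in SCI8d + TM, −0.12 to 0.61 (0.18) in SCI8d and −0.14 to 0.14 (−0.02) in CTR. Trained and untrained arrays overlapped in it, and none of the 34 genes passed the test between them, where the median difference was 0.44.

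Other cell types that could hold dividing cells moved in part with these genes. Of 23 macrophage markers, 5 were called higher in SCI8d + TM and none lower, and all 23 had a higher mean, with a median of 0.68. Those called were C1qa, C1qc, Cd68, Cd163 and Fcgr2b, at log2 fold changes of 1.02, 0.70, 0.96, 1.12 and 0.94. Under the 26 alternatives the call was lost 15 times for C1qc, 13 for Cd68, 10 for Fcgr2b and 3 for Cd163. Their number varied between 1, without SCI8d + TM replicate 6, and 9, with array weights. C1qa, a subunit of the first complement component, had signals of 3233 to 6273 (median 4958) in SCI8d + TM, 2390 to 5188 (4103) in SCI8d and 1339 to 2828 (2373) in CTR, with no overlap between trained and control arrays. The macrophage list mean relative to CTR was 0.19 to 1.49 (median 0.72) in SCI8d + TM, −0.24 to 1.01 (0.43) in SCI8d and −0.45 to 0.49 (−0.00) in CTR, so that 2 trained arrays lay inside the control range. The array with the highest macrophage mean, SCI8d + TM replicate 2, also had the highest cell cycle mean. That array was the highest of its group in 15 of 48 lists and had the highest array median, 234.3. Of 17 markers of other leukocytes, 0 were called in limma and the median was −0.11. In the list of 30 chemokines and receptors, 1 gene was higher and 1 lower (3.33% each), below the 7.4% and 8.72% over all genes. These were Il18, a cytokine kept in that list, at 1.19, and Cxcl12 at −1.01. The call of Cxcl12 was lost under the methods' t-test and with its probe sets averaged (−0.41). The part of macrophages or other cells in the mitotic signals was not tested.

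**Figure D2:**
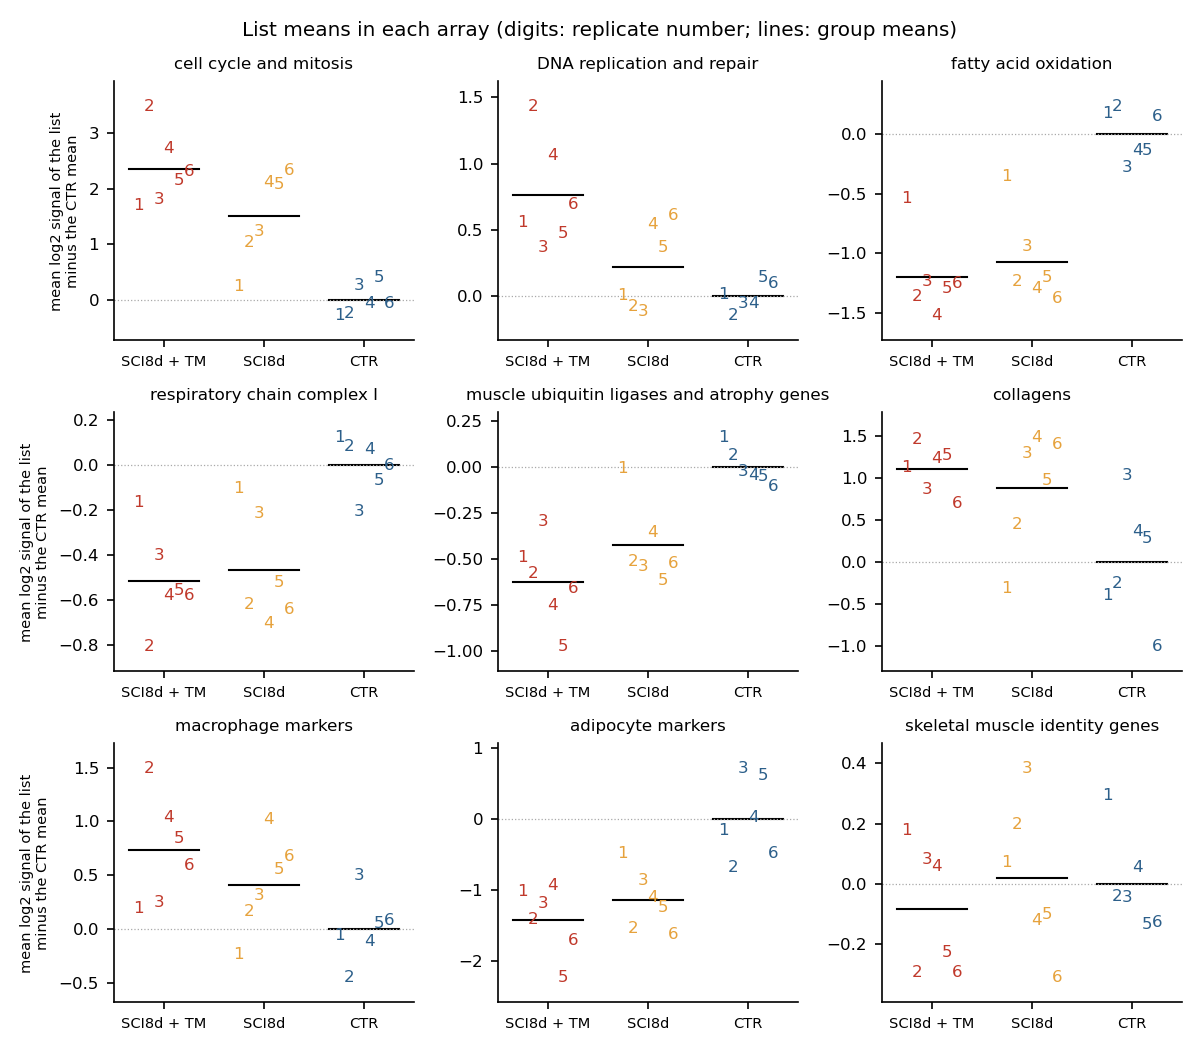
Mean log2 signal of 9 gene lists in each array, relative to the CTR mean, with digits for the replicate number and lines for group means. The cell cycle means of SCI8d + TM, 1.70 to 3.48, all lie above those of CTR, whereas collagens and macrophage markers overlap and muscle identity genes stay near 0.

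Genes of fatty acid oxidation fell throughout the list. All 20 were lower in SCI8d + TM, with a median log2 fold change of −1.12. In 15 of them no trained array reached the lowest control array, as in 1122 of all 31042 probe sets. Under the 26 alternatives, 17 to 20 were called. Acot2 and Eci1, a mitochondrial acyl-CoA thioesterase and the isomerase for unsaturated chains, fell most, each by 2.05. Eci1 signals were 2134 to 7245 (median 3307) in SCI8d + TM, 2940 to 9261 (3737) in SCI8d and 10422 to 18130 (15084) in CTR. No injured array overlapped the controls here, and the adjusted p was 0.000137, although the gene's other probe set, at 0.27, was not called. Hadhb, a subunit of the trifunctional protein, had 13598 to 25171 (17604) in SCI8d + TM, 16047 to 24094 (18697) in SCI8d and 28324 to 39903 (32070) in CTR. Its signals in the injured groups coincided, with a log2 fold change of −0.89 (SE 0.15) when trained. Echs1, the second enzyme of the spiral, fell by 1.44, and Cpt1b, the carnitine transferase that admits long chains to mitochondria and that was picked after its values were seen, fell by 1.11. The untrained comparison also called all 20 lower, with a median of −1.09, and again all 20 without SCI8d replicate 1. The trained minus untrained difference had a median of −0.11, and of 0.00 without that array. SCI8d + TM replicate 1 had the highest list mean of its group, −0.54 beside a group median of −1.28, as SCI8d replicate 1 had in its own, −0.36 beside −1.22. Promoters of 16 of these genes were in the RefSeq table, and AAGGTCA, the sequence read by estrogen-related receptors, occurred on either strand in 1 of them (6.25%), against 4.61% of all promoters.

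Genes for the supply and storage of fatty acids followed. Of 17 genes, 10 were lower and 0 higher, with a median of −1.11. Fabp3, the fatty acid binding protein of heart and slow muscle, had signals of 5961 to 26235 (median 8423) in SCI8d + TM, 6648 to 20912 (9035) in SCI8d and 39106 to 57792 (44424) in CTR. The highest trained array, replicate 1, still lay below all controls, and the log2 fold change was −2.18 (SE 0.37, adjusted p = 0.000338). Cd36, which carries fatty acids across the membrane, fell by 1.41, and Plin4, a coat protein of lipid droplets, fell by 2.18. Lpl, the lipase at the capillary wall, fell by 1.10 with overlapping groups, since SCI8d + TM replicate 1 reached 30342 against a lowest CTR signal of 27268. Adipocyte markers fell as well. Among 15, which include G0s2 and Lpl, 8 were lower with a median of −1.10, and Adipoq, the hormone of fat cells, fell by 2.43, a gene picked after its values were seen. The adipocyte list mean relative to CTR was −2.23 to −0.94 (median −1.30) in SCI8d + TM, −1.63 to −0.49 (−1.18) in SCI8d and −0.69 to 0.71 (−0.07) in CTR. The trained arrays did not overlap the controls in it, and how much of the fall of lipid genes came from fat cells was not tested.

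Genes for the use of ketone bodies and acetyl-CoA were lower along the same line. All 4 genes of ketone body metabolism fell, with a median of −1.34. Bdh1, the dehydrogenase that makes acetoacetate from hydroxybutyrate, had signals of 142 to 491 (median 198) in SCI8d + TM, 127 to 331 (221) in SCI8d and 825 to 2043 (1440) in CTR. All injured arrays lay below all controls, and the log2 fold change was −2.56 (SE 0.42, adjusted p = 0.000232). Oxct1, which activates acetoacetate, fell by 1.44, Acat1, which splits the product, fell by 1.23, and the transporter Slc16a1 fell by 0.92. With its probe sets averaged, Slc16a1 was at −0.76 and was not called. In the citrate cycle, 13 of 16 genes were lower and 0 higher, with a median of −0.64. Idh2, Idh3b and Ogdh, dehydrogenases of the cycle, had log2 fold changes of −0.84, −0.83 and −0.81, and Suclg1, a subunit of succinyl-CoA synthetase, of −0.75. The untrained comparison called 11 of these 16 lower, with a median of −0.55, and 13 with a median of −0.65 without SCI8d replicate 1.

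Genes for the breakdown of branched-chain amino acids fell in 15 of 20 cases, with a median of −0.92. Mccc1, which carboxylates the leucine intermediate, had signals of 917 to 1340 (median 1067) in SCI8d + TM, 1054 to 2241 (1293) in SCI8d and 1855 to 2685 (2501) in CTR. Trained and control arrays did not overlap, and the log2 fold change was −1.12 (SE 0.20, adjusted p = 0.000438). Hsd17b10, of the isoleucine branch, and Pccb, a subunit of propionyl-CoA carboxylase, had log2 fold changes of −0.96 and −0.88. Only 8 of the 20 were called lower in SCI8d, with a median of −0.68, but 15 without SCI8d replicate 1. All 20 averaged lower in SCI8d + TM than in SCI8d, by a median of 0.22 on the log2 scale, and 0 passed that test. Without SCI8d replicate 1 the median difference was −0.04.

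Respiratory chain genes fell by less per gene but in large numbers. In complex I, 24 of 31 were lower and 0 higher, with a median of −0.53, and in complexes III, IV and V 16 of 34 were lower and 0 higher, with a median of −0.38. The 16 ranged between 9, without CTR replicate 1, and 25, after quantile normalization. Ndufa11, an accessory subunit of complex I, had signals of 7999 to 12102 (median 9470) in SCI8d + TM, 8764 to 11633 (9767) in SCI8d and 15174 to 19391 (16910) in CTR. The injured groups coincided and neither reached the controls, and the log2 fold change was −0.82 (SE 0.13, adjusted p = 0.000113) in trained muscle. Ndufs1, which holds iron-sulfur clusters, fell by 0.94. The log2 fold changes of Ndufb7, also of complex I, of Uqcr11 of complex III, of Cox8b of cytochrome oxidase and of Atp5pf of the ATP synthase were −0.80, −0.74, −0.69 and −0.59. Untrained muscle had 15 of 31 and 9 of 34 called lower, and 21 and 15 without SCI8d replicate 1. Of 14 regulators of mitochondrial genes, 5 were lower and 0 higher, with a median of −0.52, and 3 were lower without CTR replicate 1. Esrra, the estrogen-related receptor that drives oxidative genes, had 1388 to 2184 (median 1763) in SCI8d + TM, 1391 to 2122 (1513) in SCI8d and 2236 to 4505 (3830) in CTR. Its groups came close without touching, and the log2 fold change was −1.03 (SE 0.19, adjusted p = 0.000544). Perm1, a partner of this receptor in striated muscle, fell by 2.21.

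Few glycolytic genes were called. Of 27 genes of glycolysis and glycogen, 3 were higher (11.1%) and 2 lower (7.41%), beside 7.4% and 8.72% over all genes. The median was −0.21, and 18 of the 27 had a lower mean. With median centring 6 were called lower. Ldha and Pgam1, the muscle subunit of lactate dehydrogenase and a mutase of the lower pathway, rose by 0.66 and 0.88, whereas Ldhb, the heart subunit, fell by 1.01 and Ugp2, which makes UDP-glucose for glycogen, fell by 0.98. Ldhb signals were 16434 to 29092 (median 18174) in SCI8d + TM, 12788 to 35294 (19855) in SCI8d and 36487 to 46958 (37870) in CTR, with every injured array below every control. In the creatine system, 2 of 8 genes were higher and 2 lower, and 0 were lower without CTR replicate 1. Gatm and Gamt, the enzymes that make creatine, rose by 1.35 and 0.87, although the other probe set of Gatm, at −0.86, was not called. Gatm signals were 1061 to 1880 (median 1363) in SCI8d + TM, 383 to 1404 (789) in SCI8d and 387 to 811 (569) in CTR, with all trained arrays above the controls.

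**Figure D3:**
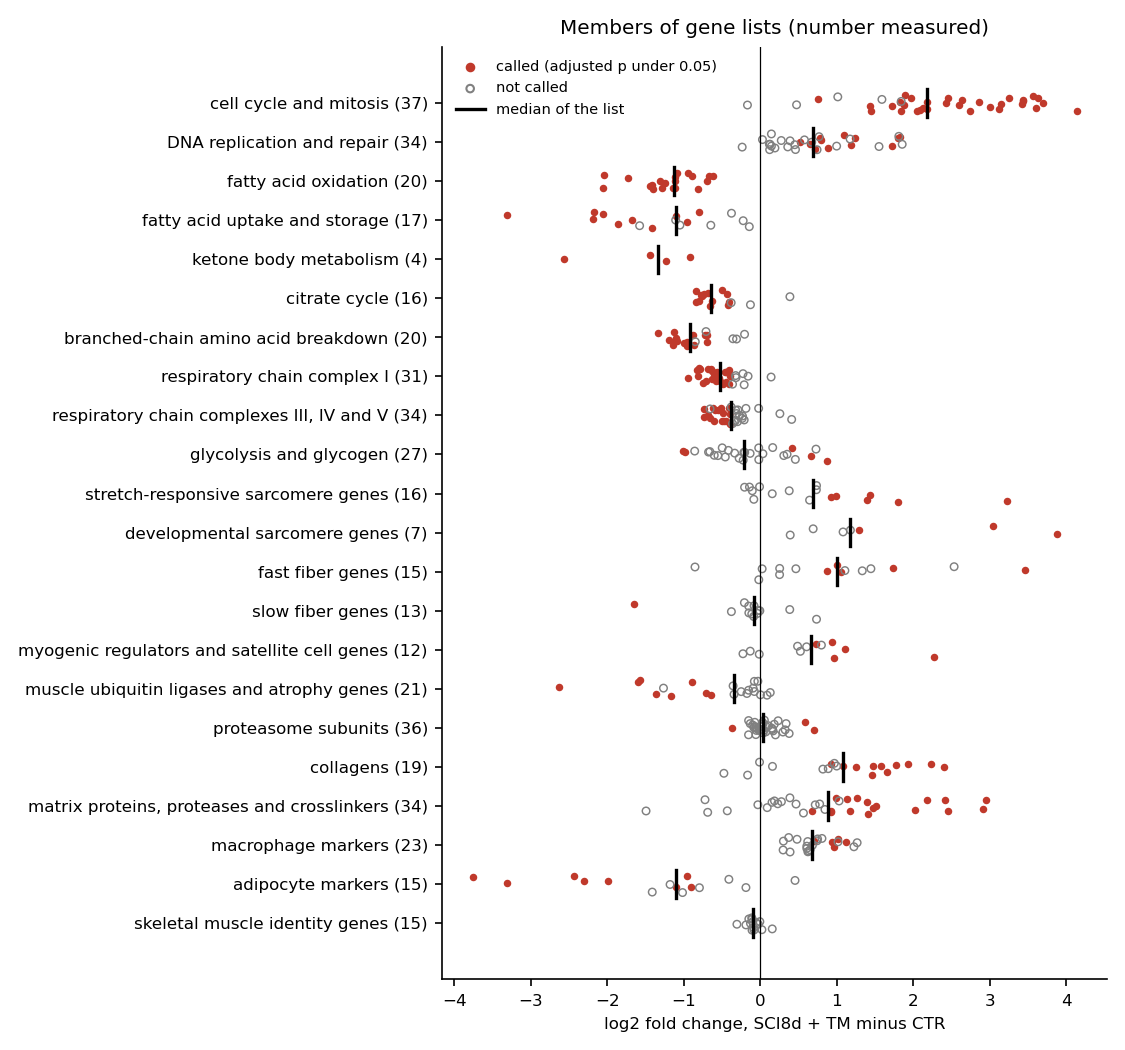
Log2 fold change, SCI8d + TM minus CTR, of each measured member of 22 gene lists, filled where called and open where not, with the list median as a bar. Cell cycle genes lie to the right with a median of 2.19, fatty acid oxidation to the left with −1.12, and the 15 muscle identity genes between −0.30 and 0.16.

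Sarcomere genes of stretched and developing fibers rose. Of 16 stretch-responsive genes, 6 were higher and 0 lower, with a median log2 fold change of 0.69. Ankrd1, a titin-binding protein induced by stretch, had signals of 7488 to 40396 (median 25443) in SCI8d + TM, 1915 to 36664 (18213) in SCI8d and 704 to 3765 (2707) in CTR. All trained arrays were above all controls, while SCI8d replicate 1 was not, and the log2 fold change was 3.22 (SE 0.72, adjusted p = 0.0029). Mustn1, a small nuclear protein of regenerating muscle, rose by 1.43, Xirp1, which marks sites of sarcomere repair, by 1.40 and Enah, an actin regulator, by 1.81. Among 7 developmental genes, 3 were higher and 0 lower, with a median of 1.18. Mybph, a myosin-binding protein seen in immature and remodelling fibers, had 25207 to 39203 (35925) in SCI8d + TM, 10532 to 52427 (31701) in SCI8d and 1336 to 5835 (2115) in CTR. The injured arrays lay above every control array by a wide margin, and the log2 fold change was 3.88 (SE 0.57, adjusted p = 6.5e-05). Myh8, perinatal myosin, rose by 3.05 on dim signals with overlapping groups, and Myl4, the embryonic light chain, rose by 1.30. Embryonic myosin, Myh3, missed the threshold (log2 fold change 1.08, SE 0.41, adjusted p = 0.0778).

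Fast fiber genes rose in 5 of 15, with a median of 1.0, and slow fiber genes stayed near the controls, with 1 of 13 lower and a median of −0.09. Actn3, the α-actinin of fast fibers, had signals of 2565 to 12848 (median 5850) in SCI8d + TM, 1793 to 37130 (5360) in SCI8d and 123 to 9935 (397) in CTR. CTR replicate 2 overlapped the injured groups and the other controls did not, and the log2 fold change was 3.46 (SE 0.89, adjusted p = 0.00913). The same array held the highest fast fiber mean of any control, 1.82 above the CTR mean, and without it 8 of the 15 genes were called. Under the methods' t-test, which calls a similar number of probe sets after adjustment, 0 of the 15 were. Tnnt3, Myl11 and Tnnc2, the fast troponin T, light chain and troponin C, rose by 1.74, 1.0 and 0.87. Myh1, fast myosin IIx, went the other way without passing the test, at −0.85 on the log2 scale (SE 0.34, adjusted p = 0.0964), and 1 of its 4 other probe sets was called in the opposite direction at 1.18. The slow fiber gene called lower was Pln, phospholamban, the brake of the calcium pump of slow fibers, which fell by 1.65. The pump itself, Atp2a2, missed the threshold at −0.38 (SE 0.14, adjusted p = 0.082). Of 17 genes of calcium handling, 2 were higher (11.8%) and 1 lower (5.88%), with a median of 0.37, beside 7.4% and 8.72% over all genes. The number higher was 0 with median centring and 5 with the 2 groups fitted alone.

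**Figure D4:**
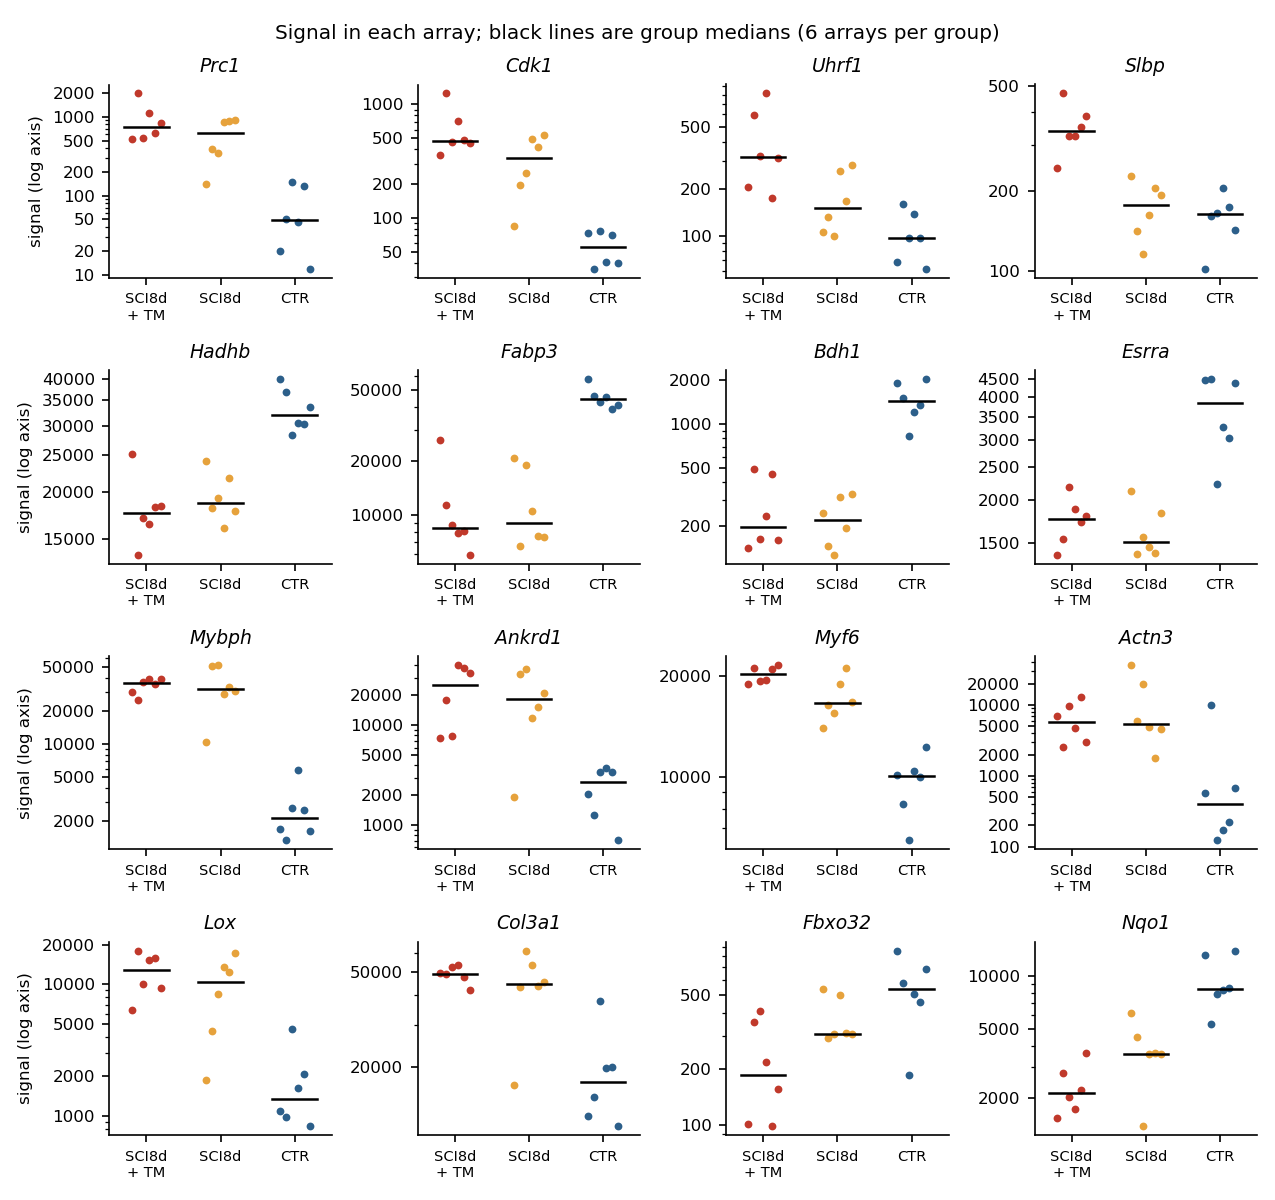
Signal of 16 genes in each array on log axes, for SCI8d + TM, SCI8d and CTR, with black lines for group medians of 6 arrays. Prc1, Mybph and Lox lie higher in trained than in control muscle without overlap, Hadhb, Fabp3 and Bdh1 lower without overlap, and Slbp is high in the trained arrays alone.

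Myogenic regulators rose in 5 of 12 genes, with 0 lower and a median of 0.67, and 3 were called without CTR replicate 2. Myf6, the regulator most abundant in adult fibers, had signals of 18962 to 21665 (median 20303) in SCI8d + TM, 14012 to 21124 (16607) in SCI8d and 6426 to 12245 (10043) in CTR. The trained arrays lay close together and far from the controls, and the log2 fold change was 1.11 (SE 0.16, adjusted p = 5.83e-05). The study's own RT-qPCR, however, did not bear out the rise of Myf6 in injured muscle on day 8. It also found no significant increase of this mRNA with training. Cdh15, the cadherin of satellite cells, rose by 0.97, and Mymk, the membrane protein that lets myoblasts fuse, rose by 2.27 with overlapping groups. Myog, the regulator of terminal differentiation, rose by 0.94, with an adjusted p of 0.0288 that was above 0.05 under 5 of the 26 alternatives and reached 0.0973 without SCI8d + TM replicate 6. At the neuromuscular junction, 4 of 15 genes were higher and 2 lower. Chrne, the adult acetylcholine receptor subunit, Runx1, a factor induced by denervation, and Ncam1, an adhesion molecule of denervated and regenerating fibers, rose by 2.26, 1.76 and 1.72. Colq, the collagen tail of acetylcholinesterase, fell by 1.24. Chrna1, the α subunit of the receptor, which denervation is known to raise, had 364 to 1425 (520.5) in SCI8d + TM, 342 to 661 (449) in SCI8d and 1459 to 1807 (1635) in CTR. Its injured arrays lay below all controls, but its adjusted p of 0.0358 was above 0.05 under 13 of the 26 alternatives, among them 10 of the 12 that left out 1 array, with a highest value of 0.0849.

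Atrophy genes fell in part, and none rose. Of 21 muscle ubiquitin ligases and atrophy genes, 8 were lower and 0 higher in SCI8d + TM, with a median of −0.34, and in SCI8d 5 were lower, with a median of −0.27. Without SCI8d replicate 1, 7 were lower in SCI8d with a median of −0.39, so that the order of the trained and untrained medians turned round. Asb2, a ligase subunit that restrains muscle growth when overexpressed in mice, had signals of 4093 to 10302 (median 7273) in SCI8d + TM, 6721 to 17012 (8349) in SCI8d and 16457 to 24516 (20614) in CTR. Trained and control arrays did not overlap, and the log2 fold change was −1.60 (SE 0.25, adjusted p = 0.000137). Klf15, a factor induced by glucocorticoids and fasting, fell by 1.57, and Ubr2, a ligase of the N-degron pathway, fell by 1.17, although only 1 of its 4 other probe sets was called. Fbxo32, the atrophy ligase known as atrogin-1, was picked after its values were seen. Its signals were 98.9 to 409 (187) in SCI8d + TM, 294 to 538 (309) in SCI8d and 187 to 860.2 (539) in CTR. The groups overlapped through CTR replicate 3, and the log2 fold change was −1.36 (SE 0.35, adjusted p = 0.00973) in trained and −0.44 in untrained muscle. Trim63, the ligase known as MuRF1 and also picked afterwards, was at −0.25 (adjusted p = 0.407) in trained and 0.33 in untrained muscle relative to CTR. The difference between trained and untrained muscle was −0.57 and did not pass adjustment.

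Proteasome subunits stayed near the control level. Of 36, 2 were higher and 1 lower in SCI8d + TM, with a median of 0.04, beside 6 higher in SCI8d, with a median of 0.22, and 8 with a median of 0.26 without SCI8d replicate 1. The trained mean was the lower one in 34 of 36 subunits, by a median of 0.17 on the log2 scale, and 0 of them passed the test of trained against untrained muscle. Psmd11, a subunit of the regulatory lid, rose by 0.71, with 8130 to 16021 (median 11554) in SCI8d + TM, 7122 to 14400 (11878) in SCI8d and 6575 to 7494 (6959) in CTR. With its probe sets averaged, Psmd11 was at 0.49 and was not called. Among 23 genes of autophagy and lysosomes, 5 were higher, all lysosomal enzymes, and 3 were lower. Ctsz and Ctsl, lysosomal cathepsins, rose by 0.90 and 0.66, as did Ctsk, Gusb and Ctsb, by 0.89, 0.80 and 0.65. The calls of Ctsk, Gusb and Ctsb were lost under 13, 6 and 7 of the 26 alternatives, with adjusted p up to 0.137, 0.0928 and 0.0841, and the count of 5 was 2 with the GAPDH scaling or without CTR replicate 2. Ulk1, the kinase that starts autophagy, fell by 1.27, and Bnip3, a receptor for the removal of mitochondria, fell by 0.74. The lysosomal genes are also expressed by macrophages, whose markers are given above.

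Genes of the extracellular matrix rose. Of 19 collagen genes, 11 were higher and 0 lower, with a median of 1.08, and of 34 other matrix proteins, proteases and crosslinkers 17 were higher and 0 lower, with a median of 0.88. Lox, the oxidase that crosslinks collagen, had signals of 6352 to 18039 (median 12741) in SCI8d + TM, 1893 to 17185 (10412) in SCI8d and 839 to 4574 (1360) in CTR. Trained and control arrays did not overlap, and the log2 fold change was 2.92 (SE 0.47, adjusted p = 0.000191). Its relatives Loxl2 and Loxl1 rose by 2.19 and 1.52. Col3a1, the fibrillar collagen of elastic connective tissue, had 42177 to 53485 (49138) in SCI8d + TM, 16862 to 61517 (44626) in SCI8d and 11285 to 37845 (17333) in CTR. The highest control, CTR replicate 3, came close to the trained range, and the log2 fold change was 1.46 (SE 0.26, adjusted p = 0.000439). Col8a1, Col5a3 and Col5a2 rose by 2.40, 2.23 and 1.93, and Mmp14, a collagenase of the cell surface, by 1.41. Tenascin C (Tnc) and the protease inhibitor Timp1, picked after their values were seen, rose by 2.96 and 2.46.

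The collagen list mean relative to CTR was 0.69 to 1.45 (median 1.17) in SCI8d + TM, −0.32 to 1.48 (1.13) in SCI8d and −1.0 to 1.02 (0.01) in CTR. CTR replicate 3, the array with the high GAPDH ratio, gave the highest control value and overlapped the trained arrays, and SCI8d replicate 1 gave the lowest of its group. In SCI8d minus CTR, 8 collagens and 8 other matrix genes were called higher, and 10 and 17 without SCI8d replicate 1. Of 15 fibroblast markers, which share Col3a1 with the collagens, 6 were higher and 0 lower, with a median of 0.87, and the count was 3 without CTR replicate 1 and 9 without CTR replicate 3. Fap, a protease of activated fibroblasts, had 1664 to 3880 (2537) in SCI8d + TM, 389.9 to 4464 (2524) in SCI8d and 289.5 to 1053 (532) in CTR, and rose by 2.25 with no overlap of trained and control arrays. Mfap5, a microfibril protein, rose by 1.16. The number of fibroblasts was not measured, and its part in the matrix signals was not tested.

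Markers of other cells were called in both directions, in small lists whose shares are read beside 7.4% higher and 8.72% lower over all genes. Of 18 endothelial markers, 4 were lower (22.2%) and 0 higher, with a median of −0.31, and 1 was lower without CTR replicate 2. Cldn5, the claudin of capillary junctions, had 484 to 713 (611) in SCI8d + TM, 517 to 1860 (689) in SCI8d and 845 to 1842 (1501) in CTR. It fell by 1.21 without overlap between trained and control arrays. Of 12 smooth muscle and pericyte markers, 2 were lower (16.7%), with a median of −0.29. None of them was called lower with the GAPDH scaling or without SCI8d + TM replicate 2. Of 12 markers of Schwann cells and myelin 1 was higher and 1 lower (8.33% each), close to the shares over all genes, with a median of 0.31. Blood genes rose in 3 of the 6 measured, with a median of 1.49. Ahsp, the chaperone of α-globin, Slc4a1, the anion exchanger of red cells, and Alas2, the first enzyme of their heme synthesis, rose by 2.61, 2.34 and 1.54, and in SCI8d 3 were higher with a median of 1.47, and 3 with 1.62 without SCI8d replicate 1. Of 8 tendon and cartilage markers, the thrombospondin gene Thbs4 was higher at 0.93 and Chad and Comp were lower, with a median of −1.18 over the list. The call of Comp, a pentameric cartilage protein at −1.87 (adjusted p = 0.0391), was lost under 13 of the 26 alternatives, and that of Thbs4 under the methods' t-test (adjusted p = 0.0814) and without CTR replicate 6 (adjusted p = 0.0501). Their list mean relative to CTR ran widely within each group, from −1.85 to 0.21 in SCI8d + TM, −3.27 to −0.28 in SCI8d and −1.80 to 1.02 in CTR.

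Antioxidant genes fell in 10 of 31 and rose in 2, with a median of −0.32. Nqo1, the quinone reductase controlled by NRF2, had signals of 1535 to 3638 (median 2124) in SCI8d + TM, 1377 to 6140 (3599) in SCI8d and 5296 to 14049 (8438) in CTR. No trained array reached the controls, and the log2 fold change was −2.03 (SE 0.31, adjusted p = 9.47e-05) in trained and −1.38 in untrained muscle. Cat, which removes peroxide in peroxisomes, fell by 1.27, and Prdx5, which does so in mitochondria and elsewhere, fell by 0.80. Among 16 glucocorticoid targets, 6 were lower and 1 higher, with a median of −0.40, and 3 were lower without CTR replicate 2. Per1, a target that also belongs to the clock, had 417 to 1084 (699) in SCI8d + TM, 321 to 793 (551) in SCI8d and 1295 to 2753 (2015) in CTR, and fell by 1.55 without overlap. Glul, glutamine synthetase, rose by 0.80. Per1 varies with the time of day in many tissues, and the part of collection time was not tested.

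In insulin and growth factor signaling, 5 of 27 genes were lower and 1 higher, with a median of 0.08. Irs2, the insulin receptor substrate that fasting is known to raise in liver, fell by 1.37, Tsc1, a brake on mTORC1, fell by 0.52, and Mtor, the kinase of that complex, rose by 0.46. The call of Tsc1 was lost with the GAPDH scaling and with its probe sets averaged (−0.21). That of Mtor was lost with median centring and with the GAPDH scaling. Scaling to the GAPDH control probe set left 1 lower gene of the 27, and leaving out CTR replicate 1 left 2. Of 24 AP-1 and immediate early genes, 2 were lower (8.33%) and 1 higher (4.17%), not above the 8.72% and 7.4% over all genes. The number higher was 0 to 2 over the alternatives. Nr4a1 and Nr4a2, nuclear receptors induced by contraction, had log2 fold changes of −2.16 and −1.63, and Nr4a1 signals were 463 to 1757 (median 1324) in SCI8d + TM, 613 to 4404 (1278) in SCI8d and 2776 to 10642 (4871) in CTR. Trained muscle did not overlap the controls in this gene. In BMP and TGF-β signaling, 3 of 39 genes were higher and 3 lower (7.69% each), with a median of 0.00, close to the 7.4% and 8.72% over all genes. Without CTR replicate 6, 0 were higher, and with the GAPDH scaling 1 was lower. Bmp6, a ligand of the BMP pathway, fell by 0.94, but was at −0.53 and not called with its probe sets averaged. Fstl1, a secreted follistatin-like protein, rose by 0.98, with an adjusted p of 0.0207 that became 0.059 without CTR replicate 6.

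Of the 23 genes that the text of the study names, 4 were higher and 3 lower in SCI8d + TM than in CTR, and 2 were higher without CTR replicate 2. These were chosen by the study on these same arrays, so the count is no independent evidence. Mybph, Myf6, Myog, Fabp3 and Lpl are described above. Smad1, a transducer of BMP signals, had a log2 fold change of 0.46 (adjusted p = 0.0386), and Acvr2b, a receptor for activins and myostatin, of −0.94 (adjusted p = 0.0385). Both calls were lost under many alternatives, 11 of 26 for Smad1 and 13 for Acvr2b, with adjusted p up to 0.154 and 0.11. Fst, the antagonist follistatin, had 254 to 758 (453) in SCI8d + TM, 547 to 1103 (819.9) in SCI8d and 368 to 757 (522) in CTR. It did not differ from CTR by the test (log2 fold change −0.21, adjusted p = 0.629), and its trained minus untrained difference was −0.81. Bmp3, a ligand, had a trained minus untrained difference of −1.23 on dim signals. Neither difference passed adjustment. The study named both genes for a decrease with training on these same arrays, so no interval or p is given for these differences.

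The genes that separated trained muscle from controls and also came nearest to separating it from untrained muscle were Slbp, Samd4b, Smc2, Bub1, Uhrf1, Sod1, Cyrib, Hrc, Pakap and Sc5d, 10 called genes taken in the order of the unadjusted p of SCI8d + TM minus SCI8d. They were chosen for this difference, so it is given as a description. Slbp, which binds the stem-loop of histone mRNA in S phase, had signals of 246 to 471 (median 338) in SCI8d + TM, 116 to 229 (178) in SCI8d and 102 to 206 (164) in CTR. The trained arrays lay above all others while the untrained ones coincided with the controls, and the log2 fold change against CTR was 1.15 (SE 0.24, adjusted p = 0.00149), although its 2 other probe sets, at −0.45 and 0.48, were not called. Smc2, a condensin subunit, and Bub1, a checkpoint kinase, belong with Slbp and Uhrf1 to dividing cells. Bub1 had 406 to 860.1 (465) in SCI8d + TM, 206 to 454 (299.8) in SCI8d and 269 to 352 (292) in CTR, and its adjusted p of 0.0299 against CTR became 0.1 without SCI8d + TM replicate 2. The trained minus untrained differences were 1.01 for Slbp, 1.12 for Smc2 and 0.78 for Bub1. No interval is given for them, since the genes were picked for this difference. Sod1, the cytosolic superoxide dismutase, and Hrc, a calcium-binding protein of the sarcoplasmic reticulum, were lower. Sod1 had 11964 to 14516 (12755) in SCI8d + TM, 14229 to 17694 (16460) in SCI8d and 15887 to 21264 (18033) in CTR, a log2 fold change of −0.46 (SE 0.10) against CTR and a difference of −0.33 from untrained muscle. Trained and untrained arrays met at the edge of their ranges. None of the 10 passed adjustment over the 31042 probe sets. Without SCI8d replicate 1, 1 probe set did, that of Tnfrsf19, a receptor of the tumor necrosis factor family, at a log2 difference of 2.61 (SE 0.42, adjusted p = 0.0156), a gene picked after its values were seen.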

How the data were processed

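Total RNA of the left soleus of 6 rats per group was hybridised to Affymetrix Rat Genome 230 2.0 arrays, 1 array per rat. The authors used Microarray Suite 5.0 to compute the deposited intensity values, which are linear signals scaled to 1 target per array and not log transformed. The methods describe a filter of at least 4 present calls, but detection calls were not used here, so the filter was not checked. The study's methods give a smaller amount of RNA for labelling than the sample labels do, and which is right is not known here. The deposited table held 31099 probe sets, of which 57 manufacturer controls were left out and 0 columns belonged to other samples. Of the remaining 31042, 20826 had 1 gene symbol, 436 several and 9780 none, and 20764 of the first matched the RefSeq gene table by identifier. Each gene is given by its brightest probe set, as the average of log2 signals across the 36 arrays.

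All 36 arrays entered 1 model of 6 groups on log2 signals, run in R 4.3.3 using limma 3.58.1 (30 residual and 5.45 prior degrees of freedom, intensity trend), p was adjusted by Benjamini-Hochberg over 31042 probe sets, and a probe set was called under 0.05. The methods' t-test was run as an alternative, also on the log2 scale and with a common variance. The procedure was tested on simulated data. The genes named are the 15 highest and 15 lowest called genes brighter than 6.728 in mean log2 signal, the 40th percentile, up to 4 genes of the smallest p per list, genes named in the study and the 10 called genes of smallest p between trained and untrained muscle, with later picks marked. The comparison and the 48 gene lists were chosen with earlier results of these data known. The lists overlap, so that a gene can count in several. Plots were made using Python 3.11.15 and matplotlib 3.10.9. The number of arrays limits the precision of every value, and samples were grouped by their labels.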

Additional observations from a re-analysis of the deposited data

Results flagged for a closer look

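For each gene named in the text, the gap between the highest or the lowest of the 6 log2 signals of a group and its neighbour was divided by the group's range, and values above Dixon's limit for 6 arrays are listed. Chance gives such a value in about 5.0% of groups, and 15 of 322 groups had one (4.66%), which is close to that share.

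In SCI8d + TM, Adipoq was lowest in replicate 5 (gap over range 0.695), Idh2 was highest in replicate 1 (gap over range 0.643), Mfap5 was highest in replicate 5 (gap over range 0.662), Comp was highest in replicate 1 (gap over range 0.626), Nr4a1 was lowest in replicate 6 (gap over range 0.633) and Eif5a was lowest in replicate 1 (gap over range 0.754). In CTR, Chad was lowest in replicate 6 (gap over range 0.632), Myh8 was lowest in replicate 5 (gap over range 0.669), C1qa was lowest in replicate 4 (gap over range 0.700), C1qc was lowest in replicate 4 (gap over range 0.780), Ogdh was highest in replicate 1 (gap over range 0.694), Atp2a2 was highest in replicate 1 (gap over range 0.648), Myog was highest in replicate 6 (gap over range 0.673), Mmp14 was highest in replicate 3 (gap over range 0.679) and Smc2 was highest in replicate 3 (gap over range 0.814).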

How the results depend on the processing

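The count of 3783 probe sets called between SCI8d + TM and CTR kept within 1.5 times of its size under all alternatives but 2, the scaling to the GAPDH control probe set, with 2405, and the methods' t-test, with 8479 before adjustment and 3781 after it. Leaving out 1 array gave 2616, without SCI8d + TM replicate 4, to 4362, without SCI8d + TM replicate 1. With array weights it was 5528, with the 2 groups fitted alone 4542 and with the dimmest 40% of probe sets left out 4165 of 18625. The share of lower calls, 46.8%, was 71.8% with median centring, 36.2% with the GAPDH scaling, 53.3% after quantile normalization, 53.5% with 1 probe set per gene, 48.5% without the dimmest probe sets, 49.5% in the t-test and 46.2 to 50.0% without 1 array. The count between SCI8d and CTR, 1952, was 1094 with the GAPDH scaling, 3967 with array weights and, in alternatives chosen after seeing the data, 1109, without SCI8d replicate 2, to 3398, without SCI8d replicate 1, with 1143 and 1177 without SCI8d replicates 6 and 5. Between SCI8d + TM and SCI8d, leaving out 1 array, also chosen after seeing the data, gave 0 to 1 call, the 1 being without SCI8d replicate 1. The replicate numbers are shared by the groups, but same-numbered arrays did not deviate together in every pair (residual correlations −0.128 to 0.248, with 2 of 6 arrays correlating best with their own number). The numbers are used here as names of arrays, and this check cannot tell whether some numbers share a factor. With the number as a replicate block, 3931 probe sets were called between SCI8d + TM and CTR and 2035 between SCI8d and CTR. With replicates 5 and 6 set apart by a term, these counts were 4105 and 2145. Of 161 genes named, 154 were called, 116 of which kept call and direction under all 26 alternatives, 38 lost the call under at least 1 and 0 changed direction. Single arrays cost 2 to 12 of these calls. Tnfrsf19, not called and with a log2 fold change of 0.12, had −0.06 after quantile normalization, −0.02 with median centring and, of the fits without 1 array, −0.04 without CTR replicate 3 to 0.28 without CTR replicate 4. Of 66 list counts above 0, 40 moved by over 1.5 times when 1 array was left out, 36 of them counts of 5 or fewer. The cause of these shifts was not tested. Mitotic genes were dim in CTR, so the size of their fold changes depends on the scale. Their list median was 2.19, and 1.82 with an offset of 32.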

Other observations

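Over all genes, 7.4% were called higher and 8.72% lower in SCI8d + TM, and the shares below are read beside these. In genes of protein synthesis and folding the list medians depended on the scaling, that of the initiation factors being −0.11 with median centring. Of 35 translation initiation factors, 4 were higher (11.4%) and 1 lower (2.86%) in SCI8d + TM than in CTR, with a median log2 fold change of 0.04. Eif4a1, the helicase that unwinds mRNA for the ribosome, had signals of 6829 to 12771 (median 11232) in SCI8d + TM, 6682 to 15829 (10718) in SCI8d and 5464 to 6876 (6357) in CTR, and rose by 0.75 with a slight overlap of the groups. Eif5a, which carries hypusine and helps elongation, and Eif4h, a partner of the helicase, rose by 0.71 and 0.51. Eif2b5, a subunit of the exchange factor that recharges eIF2, fell by 0.44. The call of Eif4h was lost with median centring and that of Eif2b5 with the GAPDH scaling and with its probe sets averaged. Of 19 aminoacyl-tRNA synthetases 3 were higher (15.8%) and 2 lower (10.5%), with a median of 0.23, and Eprs1, which charges glutamate and proline, rose by 0.61. Of 24 ribosome biogenesis genes 2 were higher (8.33%) and 0 lower, with a median of 0.29, and of 27 chaperones 2 were higher (7.41%) and 1 lower (3.7%), with a median of 0.35. Hspb8, a small heat shock protein of muscle, rose by 0.88, with 21169 to 35947 (27216) in SCI8d + TM, 14433 to 32435 (28280) in SCI8d and 13010 to 16712 (14462) in CTR.

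Of 22 genes of ATF4, p53 and polyamines 2 were higher and 2 lower (9.09% each), with a median of −0.10, and Ddit3, the factor CHOP of the unfolded protein response, fell by 1.11, with 928 to 1952 (1036) in SCI8d + TM, 819 to 2525 (1107) in SCI8d and 2053 to 3155 (2537) in CTR. Of 22 interferon response genes 1 was higher and 1 lower (4.55% each), with a median of 0.02. Of 17 clock genes 4 were lower (23.5%) and 0 higher, with a median of −0.22, Per1 among them, and the number called lower was 1 to 5 over the alternatives.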
